A study of Mus musculus with 6 samples.

Results

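The miR-34 and miR-449 miRNAs form a family defined by a shared seed, the stretch near the 5′ end through which a miRNA recognises its targets. The members were taken by name, as every mature miRNA of the genes Mir34a, Mir34b, Mir34c, Mir449a, Mir449b and Mir449c from either arm of the hairpin, which gave 10 of the 1055 mature miRNAs in the read tables. The libraries came from whole brains of 3 wild-type and 3 Adar2-/- mice, all female siblings of strain 129SV, taken as adults at 5.5 months of age. Adar2 (Adarb1) encodes an enzyme that converts adenosine to inosine in double-stranded RNA. According to the study's methods, the mice of both genotypes also carried the pre-edited Gria2 R/R allele, without which the loss of Adar2 is lethal, so the comparison is of Adar2 loss on that shared background. The comparison addressed whether the levels of mature miRNAs differ when Adar2 is absent. Adar2 mRNA was not analysed here, so the genotype labels were not checked against the counts.

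As background, Mir34a is a transcriptional target of the tumour suppressor p53 and is expressed in neurons, where it has been tied to differentiation and ageing. Mir34b and Mir34c are made from a common transcript, and together with the Mir449 genes they are known for their abundance in cells that carry many motile cilia, which in the brain are the ependymal and choroid plexus cells. The arm that is mostly loaded into Argonaute is the 5′ arm in this family, and the other arm is marked here by an asterisk, or by 3p for miR-34b.

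The mature sequences are shown because the family is defined by them. They were taken from RefSeq (GRCm38.p6), which held 8 of the 10 members, and the capitals mark the seed, bases 2 to 8. No sequence is printed for miR-34c or miR-449b.
miR-34a: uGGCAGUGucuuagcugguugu
miR-34b-5p: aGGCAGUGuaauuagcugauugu
miR-449a: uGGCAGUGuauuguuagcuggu
miR-449c: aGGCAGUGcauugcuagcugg
miR-34b-3p: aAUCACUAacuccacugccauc
miR-34c*: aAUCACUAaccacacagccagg
miR-34a*: aAUCAGCAaguauacugcccu
miR-449a*: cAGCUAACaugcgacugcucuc

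The seed GGCAGUG was held by miR-34a, miR-34b-5p, miR-449a and miR-449c, and by no other of the 1679 mature mouse miRNAs of the RefSeq table. The 3′ arms miR-34b-3p and miR-34c* shared the seed AUCACUA, which was likewise found in only these 2. The other arms miR-34a* and miR-449a* each had a seed of their own. The hairpin of Mir34c held GGCAGUG once, at bases 14 to 20, which places this seed in its 5′ arm. The seed of miR-449b was not checked, since its sequence was not held.

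The 5′ arms of Mir34b and Mir34c were the most alike. Over 23 bases, miR-34b-5p differed from bases 13 to 35 of the Mir34c hairpin at 2 positions, A11G and U23C, counted from the 5′ end of miR-34b-5p, with the base of miR-34b-5p first and that of the Mir34c hairpin last. The study's mapping tolerated about this many mismatches, and reads that fitted several miRNAs equally well were shared out by weight, so the split of reads between miR-34b-5p and miR-34c is less certain than their sum. For comparison, miR-449a and miR-449c differed at 3 of 21 bases.

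The genes lie at 3 places in the mouse genome (NCBIM37, the build called mm9 in the submitters' notes). Mir34a is on the plus strand at chr4:149442563-149442664 and overlapped no annotated gene. Mir34c at chr9:50911139-50911215 and Mir34b at chr9:50911667-50911750 are on the minus strand with 451 bases between them, and neither overlapped an annotated gene. Mir449c at chr13:113826191-113826299, Mir449b at chr13:113827627-113827706 and Mir449a at chr13:113827742-113827832 are on the plus strand, within the gene Cdc20b and outside its exons.

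Depth was lowest in wild-type replicate 1, with 12449633 mapped miRNA reads, and highest in Adar2-/- replicate 3, with 23935544. Levels are given as reads per 1000000 mapped miRNA reads (RPM), and 3 reads corresponded to between 0.125 and 0.241 RPM. Members were tested when they had at least 100 reads in every library, which 399 of the 1055 miRNAs and 5 of the 10 members had: miR-34a, miR-34b-3p, miR-34b-5p, miR-34c and miR-34c*. A further 2 members, miR-34a* and miR-449a, had at least 10 reads in every library, and miR-449a*, miR-449b and miR-449c did not.

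The family made up a small part of the brain's miRNA reads. Its share was 0.0529%, 0.0385% and 0.0407% in the wild-type libraries and 0.0365%, 0.0607% and 0.0701% in the Adar2-/- libraries, in replicate order. The lowest share and the 2 highest were all from Adar2-/- libraries, so the genotypes overlapped.

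Of the 62820 reads of the family, 48.3% were miR-34c, 24.5% miR-34a and 16.9% miR-34b-5p. The 3′ arms miR-34c* and miR-34b-3p held 4.98% and 4.77%. The Mir449 genes contributed little: 111 reads of miR-449a, 11 each of miR-449b and miR-449c and 3 of miR-449a*, over all 6 libraries. By mean RPM the members stood at places 145 (miR-34c), 190 (miR-34a), 217 (miR-34b-5p), 313 (miR-34c*), 318 (miR-34b-3p), 555 (miR-34a*) and 614 (miR-449a) of the 1055 miRNAs. The neighbouring levels of miR-34c* and miR-34b-3p, 25.0 and 23.3 RPM over the 6 libraries, differed by less than their spread.

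**Figure D1:**
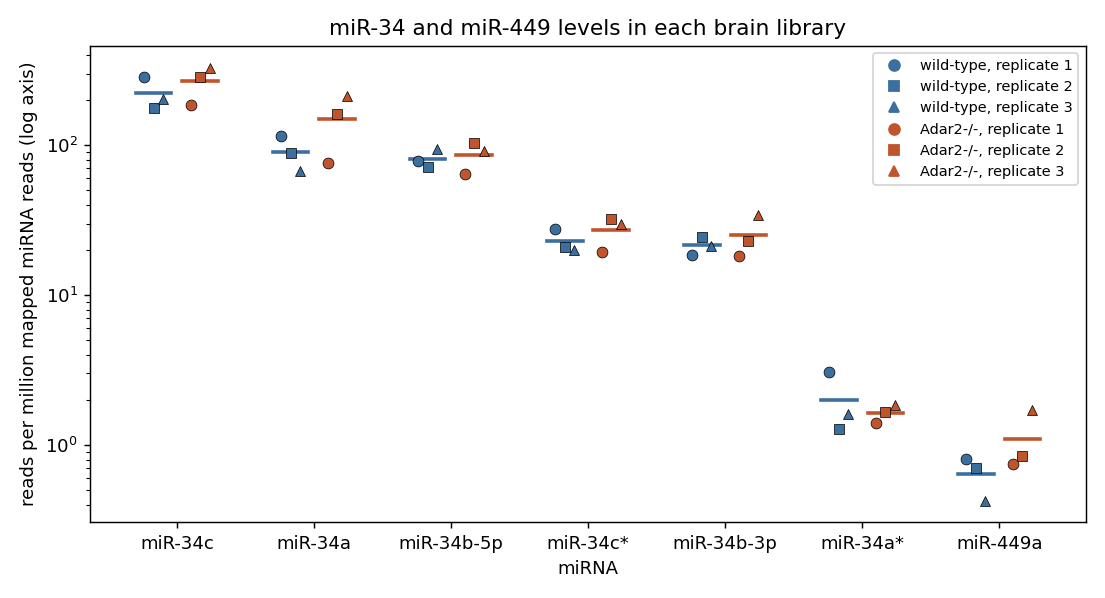
Level of the 7 members with at least 10 reads in every library, in RPM on a log axis, for each wild-type (blue) and Adar2-/- (orange) library, with replicate numbers as symbols and the genotype means as bars. The genotypes overlapped for every member shown, and Adar2-/- replicate 1 lay below the other Adar2-/- libraries for all 7.

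miR-34a showed the largest difference of the 5 tested members, but the genotypes overlapped. Its level was 114, 89.0 and 67.0 RPM in the wild-type libraries and 76.5, 162 and 213 RPM in the Adar2-/- libraries. Adar2-/- replicates 2 and 3 lay above every wild-type library, whereas Adar2-/- replicate 1 lay below 2 of the 3. The means were 90.1 ± 23.7 RPM (SD, n = 3) in wild type and 150 ± 68.9 RPM (SD, n = 3) in Adar2-/-, a ratio of 1.67. In edgeR's quasi-likelihood test the log2 fold change was 0.74 (SE 0.412, unadjusted p = 0.102), with an adjusted p of 0.988.

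miR-34c, the most abundant member, had 286, 177 and 202 RPM in the wild-type libraries and 184, 284 and 329 RPM in the Adar2-/- libraries. Wild-type replicate 1 and Adar2-/- replicates 2 and 3 were high, and the remaining 3 libraries were low. The means were 222 ± 57.2 RPM in wild type and 266 ± 74.1 RPM in Adar2-/- (SD, n = 3 each), with a log2 fold change of 0.26 (SE 0.349, edgeR adjusted p = 0.988).

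Its passenger arm miR-34c* had 27.6, 21.0 and 19.9 RPM in wild type and 19.5, 32.4 and 29.8 RPM in Adar2-/-. The same 3 libraries were high for both arms. Its log2 fold change was 0.26 (SE 0.338, edgeR adjusted p = 0.988).

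The arms of Mir34b showed small differences, and miR-34b-5p varied least of the tested members. miR-34b-5p had 78.0, 71.8 and 93.9 RPM in wild type and 64.6, 103 and 91.9 RPM in Adar2-/-, with a log2 fold change of 0.09 (SE 0.320, edgeR adjusted p = 0.989). Its SD of log2 RPM over the 6 libraries was 0.26, and 13.5% of the 399 tested miRNAs varied less, whereas for miR-34a the SD was 0.65 and 79.4% varied less. miR-34b-3p had 18.5, 24.5 and 21.3 RPM in wild type and 18.2, 23.1 and 34.3 RPM in Adar2-/-, with a log2 fold change of 0.23 (SE 0.346, edgeR adjusted p = 0.989). Only Adar2-/- replicate 3 lay above the wild-type range of this miRNA.

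None of the 5 tested members passed the edgeR threshold of an adjusted p of 0.05, and neither did any of the 399 miRNAs (0.0%). At an unadjusted p under 0.05, 13 of the 399 were found (3.26%) and no member. DESeq2 called 1 of the 399, which was no member. The median log2 fold change of the 5 members was 0.26 and that of all 399 was 0.00, with 5 of 5 and 201 of 399 above 0. The 95% interval of the log2 fold change ran from -0.18 to 1.66 for miR-34a, from -0.52 to 1.04 for miR-34c and from -0.62 to 0.80 for miR-34b-5p, so that changes of these sizes were not separated from none. Nothing in the labels says how the replicates relate beyond the mice being siblings. The column headers differ, however. Those of replicates 2 and 3 carry a further number for each library, and those of replicate 1 do not. The number after the letter s in the headers is the same in replicates 2 and 3 for each genotype, and differs in replicate 1. What these numbers stand for is not stated.

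**Figure D2:**
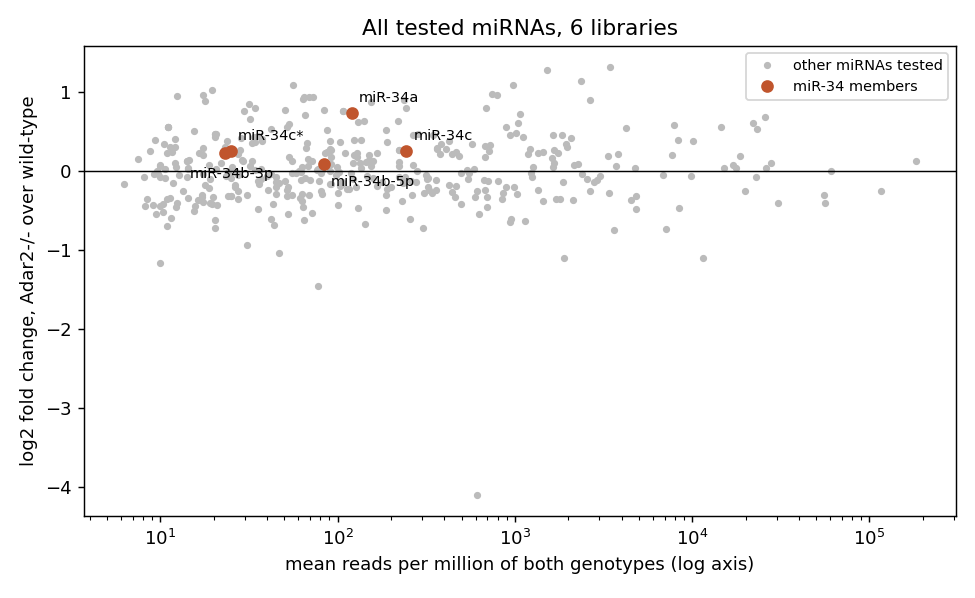
Log2 fold change of Adar2-/- over wild-type libraries (edgeR, 3 libraries each) against the mean level on a log axis for the 399 tested miRNAs, with the 5 tested members in orange. All 5 members lie above 0, from 0.09 for miR-34b-5p to 0.74 for miR-34a, within the range of the other miRNAs.

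The study's selection asked for one direction of change throughout the 3 replicate numbers together with a change of at least 1.3-fold. Of the 399 tested, 22 met it upwards in Adar2-/- (5.51%) and 17 downwards (4.26%), and no member was among either. The test that the study's tables of regulated miRNAs add to this selection was not applied in these counts. No tested member kept one direction throughout the replicate numbers. The genotypes did not overlap for 23 miRNAs (5.76%) and overlapped for every member.

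The members divided by replicate number. The ratio of Adar2-/- to wild type in replicates 1, 2 and 3 was 0.669, 1.82 and 3.18 for miR-34a. For miR-34c it was 0.643, 1.61 and 1.63, and for miR-34c* it was 0.707, 1.54 and 1.5. These 3 members were thus lower in Adar2-/- in replicate 1 and higher in replicates 2 and 3, an order found for 141 of the 399 tested miRNAs (35.3%). The other members differed: the ratios were 0.828, 1.43 and 0.978 for miR-34b-5p and 0.987, 0.943 and 1.61 for miR-34b-3p.

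**Figure D3:**
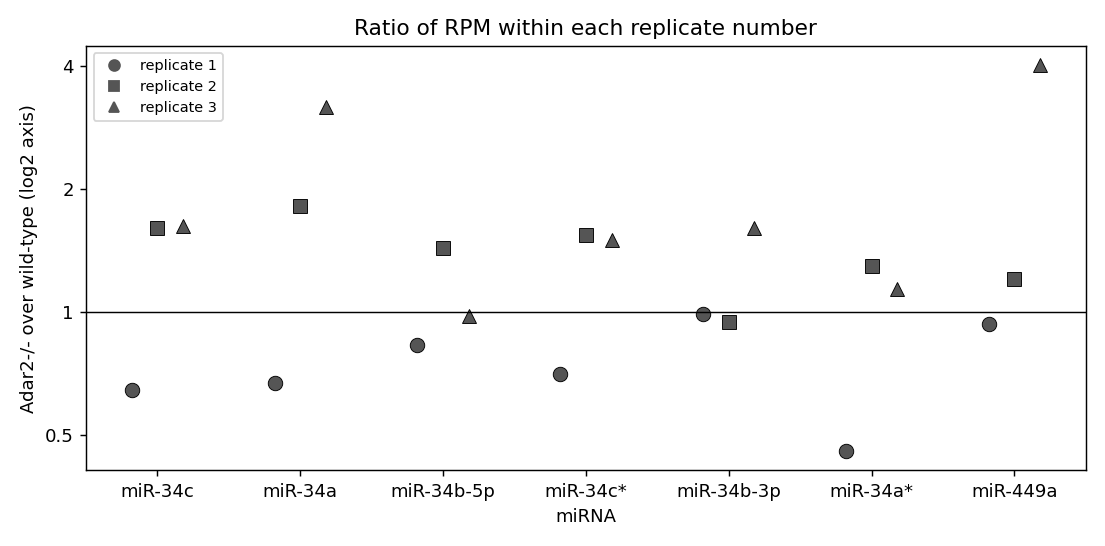
Ratio of Adar2-/- to wild-type RPM within each replicate number, on a log2 axis, for the 7 members with at least 10 reads in every library. The replicate 1 ratio is below 1 for all 7, from 0.457 for miR-34a* to 0.987 for miR-34b-3p.

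Leaving replicate 1 out of both genotypes, which left 2 libraries in each, changed the result for miR-34a. Its log2 fold change was then 1.27 (SE 0.306, edgeR adjusted p = 0.0476), and it was 1 of 18 of the 399 miRNAs called, all of them higher in Adar2-/- (4.51%). The values for miR-34c were 0.69 (SE 0.281, edgeR adjusted p = 0.187) and for miR-34c* 0.60 (SE 0.292, edgeR adjusted p = 0.271). By the study's rule without replicate 1, miR-34a, miR-34c and miR-34c* were higher in Adar2-/-, as were 141 of the 399 miRNAs (35.3%). The median log2 fold change of all 399 was then 0.17. With replicate 2 or replicate 3 left out instead, miR-34a had a log2 fold change of 0.68 or 0.23, and no miRNA was called. Leaving out only wild-type replicate 1 or only Adar2-/- replicate 1 gave 0.95 or 1.06 for miR-34a (edgeR adjusted p = 0.669 or 0.259). All these fits used total reads as library size.

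**Figure D4:**
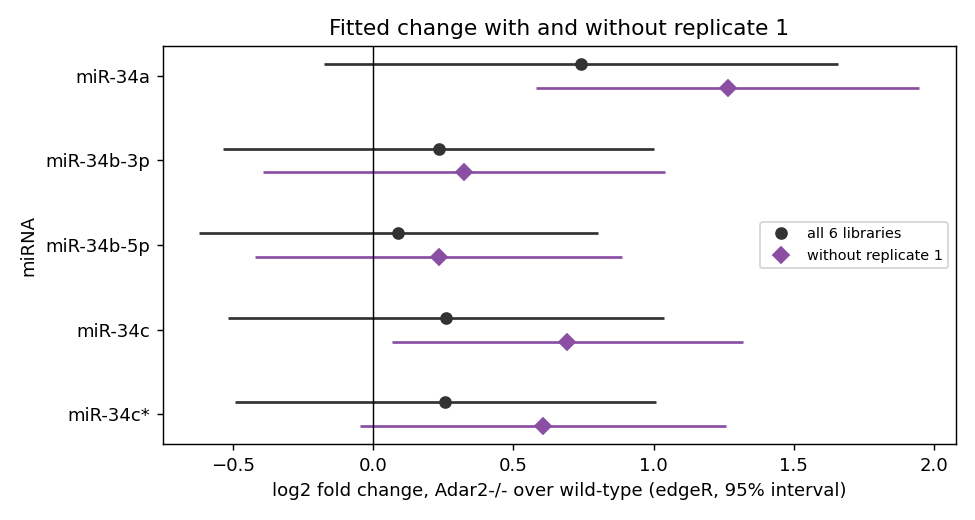
Log2 fold change of Adar2-/- over wild type with its 95% interval (edgeR) for the 5 tested members, from all 6 libraries (circles) and without replicate 1 (diamonds). The intervals of all 5 members include 0 with 6 libraries, and without replicate 1 those of miR-34a (0.58 to 1.95) and miR-34c (0.07 to 1.32) do not.

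The low members were read as counts. miR-449a had 10, 16 and 10 reads in wild type and 14, 20 and 41 reads in Adar2-/-, or 0.644 ± 0.195 and 1.10 ± 0.530 RPM (SD, n = 3 each). The highest level was that of Adar2-/- replicate 3, at 1.71 RPM. Its 95% exact binomial interval of 1.23 to 2.32 overlapped those of wild-type replicate 1 and of the other Adar2-/- libraries. miR-34a* had 38, 29 and 38 reads in wild type and 26, 39 and 44 in Adar2-/-, or 1.98 ± 0.943 and 1.63 ± 0.223 RPM. With the minimum lowered to 10 reads, the log2 fold changes were 0.81 for miR-449a and -0.25 for miR-34a*, and none of 608 miRNAs was called.

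The remaining members were at or near the limit of 3 reads. miR-449b had 2, 1 and 1 reads in wild type and 1, 3 and 3 in Adar2-/-. miR-449c had 0, 3 and 0 reads in wild type and 2, 2 and 4 in Adar2-/-. miR-449a* had 2, 0 and 1 reads in wild type and none in Adar2-/-, which at 3 reads allows up to 0.161, 0.127 and 0.125 RPM in the Adar2-/- libraries. At this depth no difference between genotypes was detectable for them. Intervals and limits of this kind cover counting error only, since reads are not independent molecules.

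Summed over gene groups, Mir34a gave 92.1 ± 24.4 RPM in wild type and 152 ± 69.1 RPM in Adar2-/-, and Mir34b with Mir34c gave 347 ± 58.6 and 405 ± 105 RPM (SD, n = 3 each). The 3 Mir449 genes together gave 0.838 ± 0.309 and 1.33 ± 0.593 RPM. The miRNAs with the GGCAGUG seed were taken as miR-34a, miR-34b-5p, miR-34c, miR-449a and miR-449c, without miR-449b, whose seed was not checked. They summed to 479, 339 and 364 RPM in wild type and 326, 550 and 635 RPM in Adar2-/-. The genotypes overlapped in all 4 sums. Two-sided exact permutation tests gave p = 0.3, 0.5, 0.4 and 0.4 in this order, with 0.1 the lowest value this design can reach, and the adjusted p over the 4 sums and 4 ratios was 0.8 for each sum.

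The arm ratios, which do not depend on the library total, showed a strong excess of the 5′ arm for Mir34a and Mir34c and a weaker one for Mir34b. miR-34a exceeded miR-34a* by 37.4, 69.9 and 41.4 times in wild type and by 54.8, 98.0 and 116 times in Adar2-/-. This ratio was higher in Adar2-/- in each of the 3 replicate numbers, but the genotypes overlapped (log2 difference 0.84, exact permutation p = 0.2, adjusted p = 0.8), and it rests on 26 to 44 reads of miR-34a* per library.

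For Mir34c the ratio was between 8.43 and 11.0 in all 6 libraries, with 9.66 ± 1.07 in wild type and 9.75 ± 1.15 in Adar2-/- (SD, n = 3 each, exact permutation p = 1.0). For Mir34b it was 3.85 ± 0.801 and 3.56 ± 0.885 (exact permutation p = 0.7). The ratio of miR-34b-5p to miR-34c, neighbours on the same strand, was 0.273, 0.406 and 0.464 in wild type and 0.351, 0.362 and 0.279 in Adar2-/- (exact permutation p = 0.6).

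**Figure D5:**
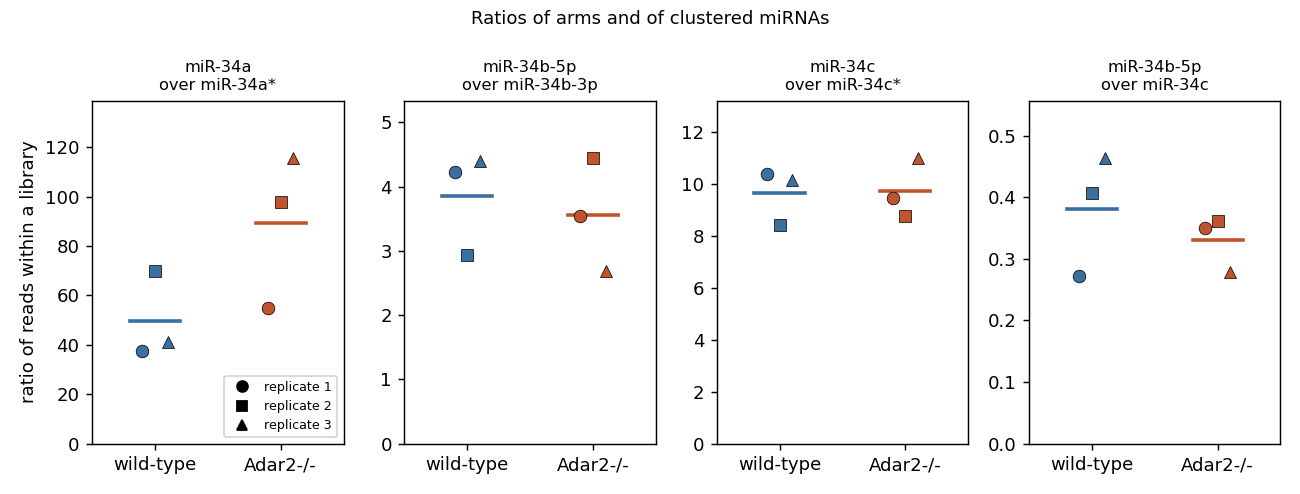
Ratio of reads within each library for the 2 arms of Mir34a, Mir34b and Mir34c and for miR-34b-5p over miR-34c, with genotype means as bars and replicate numbers as symbols. The ratio of miR-34c to miR-34c* varied least, between 8.43 and 11.0, and that of miR-34a to miR-34a* most, between 37.4 and 116.

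The members did not all vary together across the 6 libraries. Pearson's r of log2 RPM is given as a description across libraries of both genotypes and unequal depth. Between miR-34c and miR-34c* r was 0.92, and between miR-34a and miR-34c it was 0.88. It was 0.62 between miR-34b-5p and miR-34c and 0.46 between the arms of Mir34b. Of the other tested miRNAs, the ones most like miR-34a were let-7c (r = 0.99), miR-106b (0.98) and miR-499 (0.97), and those most like miR-34c were let-7d (0.99), let-7a (0.99) and miR-7a (0.99). The miRNAs most like miR-34c* were miR-107 (0.96), miR-409-5p (0.94) and miR-217 (0.94). For miR-34b-5p they were miR-28 (0.98), miR-194 (0.96) and miR-582-5p (0.95), and for miR-34b-3p miR-3099 (0.95), miR-3068 (0.94) and miR-27b (0.94).

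Other miRNAs reported to respond to p53 were read beside miR-34a. Of the 9 listed, 7 were tested and none was called, with 6 above 0 and 1 below and a median log2 fold change of 0.38. Of all 399 tested miRNAs, 201 were above 0. The largest were those of miR-16, at 1.32 (SE 0.530), and miR-107, at 0.94 (SE 0.543), both with an edgeR adjusted p of 0.988. Without replicate 1 these 2 were among the 18 of 399 miRNAs called (4.51%). Their log2 fold changes were then 1.76 (edgeR adjusted p = 0.0472) and 1.81 (edgeR adjusted p = 0.0375). That fit compared 2 libraries per genotype, and 238 of the 399 miRNAs were above 0 in it, as were 6 of the 7 tested here.

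Markers of the cells that could carry the family were measured in the same libraries. In whole tissue, fewer cells of a type and less RNA per cell cannot be told apart. Choroid plexus and ependymal miRNAs (the miR-200 family, miR-204 and miR-211), of which 6 of 7 were tested, summed to between 5677 and 7105 RPM in wild type and between 2361 and 10375 RPM in Adar2-/-, with 1 above 0 and 5 below. Their sum was highest in Adar2-/- replicate 1, where miR-34c was low, and lowest in Adar2-/- replicate 3, where miR-34c was highest. The sum and its best-known choroid plexus member did not run alike: miR-204 had 836, 1581 and 892 RPM in wild type and 1162, 1063 and 1621 RPM in Adar2-/-, and was highest in Adar2-/- replicate 3 (log2 fold change 0.22). The neuronal miRNAs, all 8 of them tested, had 5 above 0 and 3 below with a median log2 fold change of 0.12. Among them miR-128 was 1 of the 18 of 399 miRNAs called without replicate 1 (4.51%). In that fit 4 of the 8 were above 0, with a median log2 fold change of 0.04, against 0.17 for all 399. The sensory and pineal cluster miR-182, miR-183 and miR-96 was below 0 in 3 of 3, and its sum ran from 108156 to 155374 RPM in wild type and from 19158 to 186903 RPM in Adar2-/-.

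Among the other lists, the pituitary and neuroendocrine miRNAs had 2 above 0 and 1 below. Their sum was highest in wild-type replicate 1, at 7459 RPM against 1289 and 1911 RPM in the other wild-type libraries. Of these, miR-375 had 3294, 113 and 42.9 RPM in wild type and 71.7, 74.9 and 55.4 RPM in Adar2-/-. Its log2 fold change was -4.09, and -0.25 without replicate 1. For miR-7a the levels were 2976, 898 and 1423 RPM in wild type and 1120, 2390 and 3585 RPM in Adar2-/-. The 4 vessel miRNAs had 2 above 0 and 2 below, the 3 tested immune miRNAs 1 and 2, and the 2 tested blood miRNAs 2 and 0. Of the 3 oligodendrocyte miRNAs (both arms of miR-219, and miR-338-3p), 2 were above 0 and 1 below. Of the 8 listed miRNAs of the Htr2c introns, a gene of the choroid plexus, 2 were tested, miR-1298 and miR-448-3p, and both were below 0. All 8 summed to 260, 601 and 466 RPM in wild type and 189, 396 and 350 RPM in Adar2-/-. This sum was lowest in Adar2-/- replicate 1, where the choroid plexus and ependymal sum was highest. None of the miRNAs of these lists was called by edgeR with all 6 libraries. The part of tissue composition in the values of the miR-34 members was not tested.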

How the data were processed

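Small RNA of 19 to 25 nucleotides from whole brain was sequenced by the authors, with 1 library per mouse. Per the paper's methods, adaptors were removed with Cutadapt, reads were mapped with NextGenMap to mature miRNAs of miRBase, hits to the reverse strand were discarded and reads with several equally good hits were weighted. The authors deposited raw read counts per mature miRNA, with no normalization, in 1 table per replicate number. From these counts, 12 blank lines were dropped. The members and lists were chosen with earlier results of these data known.

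Levels were computed as reads per 1000000 mapped miRNA reads. A quasi-likelihood model in edgeR 4.0.16 (R 4.3.3) was fitted to the 399 miRNAs that reached 100 reads in each of the libraries. It used total reads as library size, no scaling factors and no block. Adjusted p-values followed Benjamini and Hochberg, and 0.05 was the threshold. The scripts were tested on simulated data. For sums and ratios, exact permutation tests (two-sided, scipy 1.17.1) were used. DESeq2 1.42.0, other scalings, other minimums, a replicate block and leaving out libraries were the alternatives. Named miRNAs were all members, the 3 other miRNAs most like each tested member by Pearson's r, and at most 2 with the largest changes per list. The listed miRNAs were markers of choroid plexus and ependyma, Htr2c introns, neurons, sensory and pineal cells, oligodendrocytes, vessels, blood, immune cells and pituitary, and p53-responsive miRNAs. A listed miRNA without an arm in its name was read as both arms where the tables name only arms. RefSeq sequences and the NCBIM37 annotation gave sequences and positions. Depth ran from 12449633 to 23935544 reads, so the spread between libraries, not counting error, limited the tested members. With 1 library per mouse, differences between mice and between library preparations cannot be told apart. The p-values weigh the genotype difference against the spread between these libraries.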

Additional observations from a re-analysis of the deposited data

How the results depend on the processing

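The count of calls was 0 of 399 with edgeR on all 6 libraries and 1 with DESeq2 on the same 6. It was between 0 and 18 when libraries or replicate numbers were left out of the edgeR fit. The number of members called ranged from 0 to 1 in those fits, and the number meeting the study's rule from 0 to 3, with the upper values all from leaving out replicate 1. The log2 fold changes of miR-34a, miR-34c and miR-34c* stayed above 0 in all 16 alternatives, from 0.23 to 1.27, 0.02 to 0.69 and 0.06 to 0.60. That of miR-34b-3p ranged from -0.06 to 0.42 and that of miR-34b-5p from -0.14 to 0.26 when libraries were left out, reversing without Adar2-/- replicate 3 (-0.053) or replicate 3 (-0.056) for the former and without Adar2-/- replicate 2 (-0.055) or replicate 2 (-0.14) for the latter. With libraries left out, the log2 differences ranged from 0.13 to 1.25 for the Mir34a sum, from 0.0019 to 0.56 for Mir34b with Mir34c, from -0.015 to 1.12 for the Mir449 sum, from 0.072 to 0.75 for the seed sum, from -0.48 to 0.17 for miR-34b-5p over miR-34b-3p, from -0.082 to 0.088 for miR-34c over miR-34c* and from -0.45 to 0.10 for miR-34b-5p over miR-34c. Leaving out 1 library moved the Mir34a difference of 0.64 to 0.33 (without Adar2-/- replicate 3) or 1.06 (without Adar2-/- replicate 1), and the seed sum's of 0.32 to 0.12 or 0.60 in the same order. The difference of 0.20 for Mir34b with Mir34c became 0.049 or 0.43 in that order, 0.085 without wild-type replicate 2, 0.11 without Adar2-/- replicate 2 and 0.32 without wild-type replicate 1. The Mir449 difference of 0.65 became 0.30 without Adar2-/- replicate 3 and 0.33 without wild-type replicate 3. The cause was not tested.

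No deviation shared by same-numbered libraries was seen: their deviations correlated at -0.00, -0.08 and -0.01 over the 399 miRNAs. How the mice were matched cannot be read from these values. With the replicate block 0 of 399 miRNAs and 0 members were called, with or without TMM factors, and the log2 fold change of miR-34a was 0.66. With the block, an exact permutation test by sign flips within replicate numbers gave p = 0.25 for miR-34a over miR-34a*, the smallest p that 3 numbers allow. Depth limits miR-34a* and the Mir449 members.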
